A study of Mus musculus with 2 samples.

Results

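Mat1a, Mat2a, Gnmt, Ahcy, Bhmt, Cbs, Cth, Pemt and Nnmt encode enzymes that make, spend and rebuild the methyl donor S-adenosylmethionine (SAM) or that carry away its sulfur. These 9 genes were picked by name for their place in this pathway, with earlier results of these data known. A probe was counted for a gene when the transcript it is designed for belongs to that gene in RefSeq. The 9 genes are 9 of 20648 genes named on the array and are covered by 15 probes, 1 probe each for 5 genes and several for 4. All 9 genes were among the 16343 genes measured, that is, genes whose brightest probe was well above background on at least 1 array, and all 15 probes were well above background on both arrays.

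The data are 2 Agilent Whole Mouse Genome arrays of liver RNA from male mice, 1 for a fasting group and 1 for a feeding group, each hybridised with RNA pooled from the livers of 3 mice. The labels describe the fast in one place as 16 h and in another as an overnight fast of 14 to 16 h, and they describe the feeding group both as fed ad libitum and as given food after a fast, so how long these mice had eaten is not known. No genotype, strain or drug treatment is named in the labels, and both groups came from the same kind of housing; the study's methods name C57BL/6J mice, 8 to 12 weeks old, on a chow diet. With 1 array per group, no difference between feeding and fasting below has a replicate check or a p-value, and a pool hides the spread between mice.

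The liver is the main site of methionine use. Methionine adenosyltransferases join methionine to ATP to make SAM, methyltransferases pass its methyl group on and leave S-adenosylhomocysteine (SAH), and SAH hydrolase splits SAH into adenosine and homocysteine. Homocysteine is then either methylated back to methionine, with betaine or folate as the donor, or sent by transsulfuration to cysteine. The adult hepatocyte form of the SAM synthase is encoded by Mat1a, and the form found in most other cells and in growing hepatocytes by Mat2a.

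RefSeq promoter windows (assembly GRCm38.p6, 250 bases before to 50 after the start, written along the gene's strand) were matched for 6 of the 9 genes; Mat1a, Cth and Nnmt had no entry. The windows of Mat2a (chr6:72439507-72439806, minus strand) and Ahcy (chr2:155074448-155074747, minus strand) are shown because these genes passed 2-fold, and that of Pemt (chr11:60040139-60040438, minus strand, the first of its 2 starts) because Pemt was the gene furthest in the other direction. Capitals mark GGGCGG (the GC box) and TATAAA (the TATA box), searched on both strands; CACGTG (the E-box), also searched, was in none of these windows.
Mat2a: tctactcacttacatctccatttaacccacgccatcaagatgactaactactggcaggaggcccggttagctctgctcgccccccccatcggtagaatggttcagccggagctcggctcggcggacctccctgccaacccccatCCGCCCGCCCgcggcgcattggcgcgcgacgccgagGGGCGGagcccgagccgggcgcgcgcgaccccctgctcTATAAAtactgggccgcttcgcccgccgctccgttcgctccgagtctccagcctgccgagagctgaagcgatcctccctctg
Ahcy: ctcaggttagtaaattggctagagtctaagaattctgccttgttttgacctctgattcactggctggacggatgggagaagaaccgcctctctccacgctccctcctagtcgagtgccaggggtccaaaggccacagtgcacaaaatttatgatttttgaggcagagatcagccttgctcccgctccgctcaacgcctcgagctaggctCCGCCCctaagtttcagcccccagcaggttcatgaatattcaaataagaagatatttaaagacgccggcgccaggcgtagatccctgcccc
Pemt: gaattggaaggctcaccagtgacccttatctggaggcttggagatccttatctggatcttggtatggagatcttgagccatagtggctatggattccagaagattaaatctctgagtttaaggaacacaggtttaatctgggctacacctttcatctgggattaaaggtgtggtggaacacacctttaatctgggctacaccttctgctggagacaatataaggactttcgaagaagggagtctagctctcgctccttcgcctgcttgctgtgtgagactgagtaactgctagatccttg
GGGCGG was found 3 times in the Mat2a window, with first letters 106, 102 and 70 bases before the start, where the matches at 106 and 102 overlap, and once in the Ahcy window, 41 bases before it. The Cbs window held 2 matches of GGGCGG and 1 of CACGTG, and those of Gnmt, Bhmt and Pemt held none of the 3 motifs. GGGCGG is thus in 3 of 6 genes. The share over the table counts windows and not genes, and 35.7% of its 32851 windows hold the motif. Pemt, which has no match, has 2 windows. TATAAA was in the Mat2a window alone, 32 bases before the start, and 13.6% of all windows hold it; 7.2% hold CACGTG. The windows also differed in CpG dinucleotides, with 34 in that of Mat2a, 22 in that of Cbs, 13 in that of Ahcy, 11 in that of Gnmt, 8 in that of Bhmt and 3 and 2 in those of the Pemt starts, against a median of 7 over all windows. These are matches of letters, not measured binding.

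Values are given as processed signals, which are intensities from which the scanner software has taken the background, or as normalized signals, made from them by quantile normalization of both arrays. A change is the log2 of the normalized signal upon feeding minus that upon fasting. Where a gene has several probes, the brightest over both arrays gives its value, and signals of different probes are not comparable as amounts of RNA. The spread given with a change is that of the replicate spots nearest in signal on both arrays, which had an SD of 0.08 to 0.13 for the 15 probes. Mat1a, Gnmt, Bhmt, Cbs and Cth, all very bright, took the same SD of 0.0864. For these genes the replicate spots may therefore differ in signal from the gene. The scanner software's own error estimate corresponds to an SD of 0.20. Neither covers differences between mice. Both arrays lie on the same slide, and no spot was saturated. The local background at the spots of the 15 probes was higher upon fasting (24.5 to 47) than upon feeding (18 to 26).

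Of the 9 genes, 2 were at least 2-fold lower upon feeding, Ahcy and Mat2a, and 0 were at least 2-fold higher. Over all genes measured, 4.62% were at least 2-fold lower and 3.29% higher, or 7.91% in either direction. The share differed with brightness: when genes were divided by mean signal into a dim, a middle and a bright group of equal size, 9.82%, 8.10% and 5.80% were past 2-fold in either direction and 6.11%, 4.04% and 3.71% at least 2-fold lower. Mat2a belongs to the middle group and Ahcy to the bright one. The median change of the 9 genes was -0.10 and that of all genes 0.03. The 2-fold shares take a lower bound for genes not well above background on 1 array, and the median of all genes does not. From the lowest to the highest change the order was Ahcy (-1.47), Mat2a (-1.33), Nnmt (-0.58), Cth (-0.15), Bhmt (-0.10), Cbs (-0.0055), Mat1a (-0.0015), Gnmt (0.17) and Pemt (0.41). In this order Mat2a and Nnmt, and Nnmt and Cth, were apart by more than 2 SD of replicate spots, and no other neighbours were. A change larger than 2 SD of replicate spots was seen for 5 genes, Ahcy, Mat2a, Nnmt, Pemt and, barely, Gnmt. The scanner software's SD of 0.20 is larger: the change of Gnmt was smaller than it, and that of Pemt was about 2 SD by it.

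**Figure D1:**
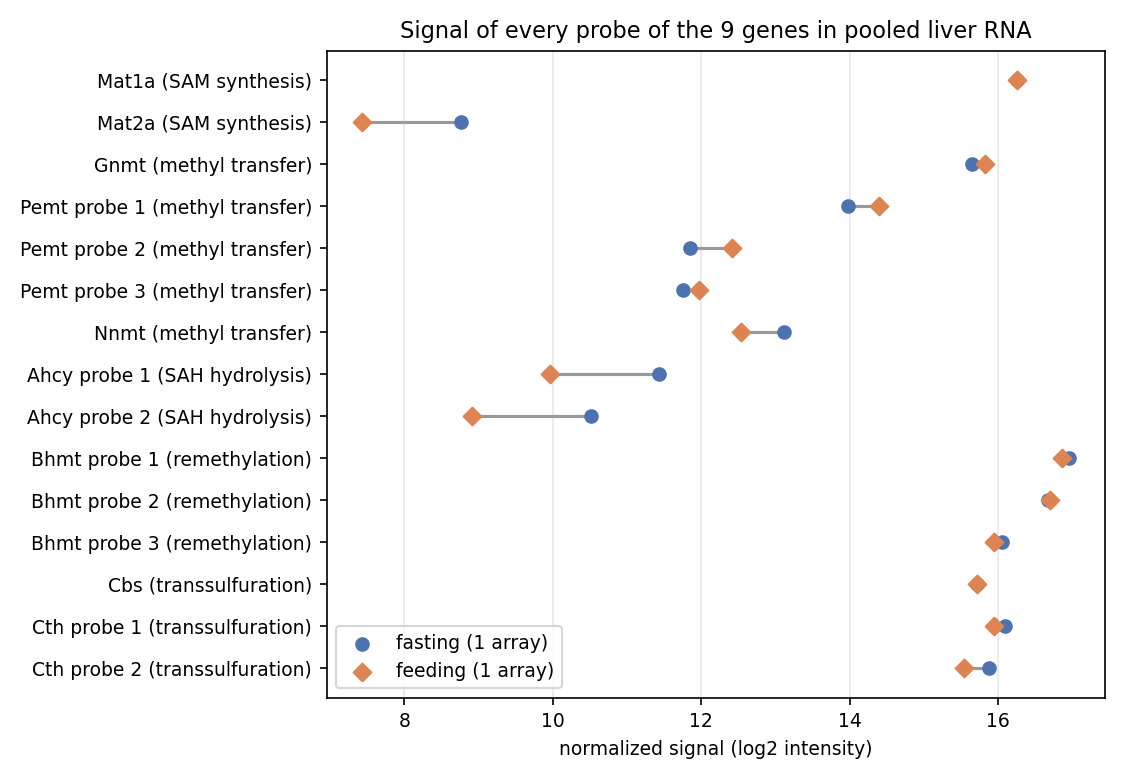
Normalized signal (log2 intensity, horizontal axis) of each of the 15 probes upon fasting (circles) and upon feeding (diamonds), with 1 array of pooled RNA per group and a grey line joining both values of a probe. The probes of Mat2a and Ahcy are the ones whose values lie furthest apart, from 8.76 to 7.43 for Mat2a, while those of Mat1a, Cbs and Bhmt nearly coincide.

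The genes for SAM synthesis did not behave alike. Mat1a had a processed signal of 80464 upon fasting and 76113 upon feeding, and its normalized signals, 78310 and 78226, were almost the same (change -0.0015, SD of replicate spots 0.09). Mat2a had a processed signal of 458.1 upon fasting and 159.5 upon feeding. After normalization these were 434.2 and 172.3, a change of -1.33 (SD of replicate spots 0.13), or 2.52-fold lower upon feeding. Of all genes measured, 2.86% had a lower change than Mat2a, and of the genes in the middle group by signal, 2.11% did. The change of Mat2a relative to that of Mat1a was -1.33 (SD of replicate spots 0.16) and lay between -1.44 and -0.98 under the alternatives tried. The call for Mat2a was lost in 1 alternative, which started from the raw median signal instead of the processed signal, corrected it by normexp and added a constant of 50: there the change was -0.94, short of 2-fold. Which of these steps moved it was not tested. The local background at the Mat2a spot was 46 upon fasting and 25 upon feeding, among the highest of the 15 probes, against raw median signals of 585 and 222; the part of this background in the change was not tested. Mat2b, the regulatory partner of the Mat2a enzyme, had a change of -0.56 (processed signals 9801 and 6523) and was not past 2-fold.

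The methyltransferase genes moved by less than 2-fold, and in different directions. Gnmt encodes glycine N-methyltransferase, the abundant liver enzyme that disposes of surplus SAM by methylating glycine. The processed signal went from 52936 upon fasting to 56326 upon feeding, a change of 0.17 (SD of replicate spots 0.09). Pemt encodes the enzyme that makes phosphatidylcholine from phosphatidylethanolamine with methyl groups of SAM. All its 3 probes were higher upon feeding: the brightest had processed signals of 16392 and 21267 (change 0.41, SD of replicate spots 0.08), the second 3703 and 5394 (change 0.57), and the third 3487 and 3984 (change 0.22). The probes of Pemt thus share a direction but differ among themselves by an SD of 0.17. Nnmt encodes nicotinamide N-methyltransferase, which spends SAM on nicotinamide. Its single probe had a processed signal of 8935 upon fasting and 5885 upon feeding, a change of -0.58 (SD of replicate spots 0.08), or 1.49-fold lower; 10.8% of all genes had a lower change. Pemt and Nnmt therefore lay apart by 0.99 on the log2 scale (SD of replicate spots 0.11), and by 0.84 to 0.99 under the alternatives.

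Ahcy, the gene for SAH hydrolase, had the lowest change of the 9 genes, and both of its probes showed it. The brighter probe had a processed signal of 2806 upon fasting and 970.4 upon feeding. Normalized, these were 2774 and 1002, a change of -1.47 (SD of replicate spots 0.11), or 2.77-fold lower. The other probe had a processed signal of 1492 upon fasting and 454.4 upon feeding, a change of -1.60 (SD of replicate spots 0.09), or 3.04-fold lower. Both probes are designed for the transcript NM_016661, so they are not independent genes but separate measurements of the same RNA. Of all genes measured, 2.29% had a lower change than Ahcy, and of the genes in the bright group by signal, 1.80% did. Upon fasting the local background was 28 at the brighter probe and 47 at the other, the one with the lower change, and upon feeding 18 and 26; its part in the changes was not tested. Ahcy stayed at least 2-fold lower under all scalings and corrections tried, between -1.54 and -1.30. The gap between Ahcy and Mat2a, -0.14, was smaller than its spread of 0.17 between replicate spots, so their order is not settled. Ahcyl1, a relative of Ahcy, had a change of 0.0046 by its brighter probe and -0.93 by the other, and Adk, the kinase that clears the adenosine released by Ahcy, -0.01 and -0.71, so for both of these genes the probes disagree.

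**Figure D2:**
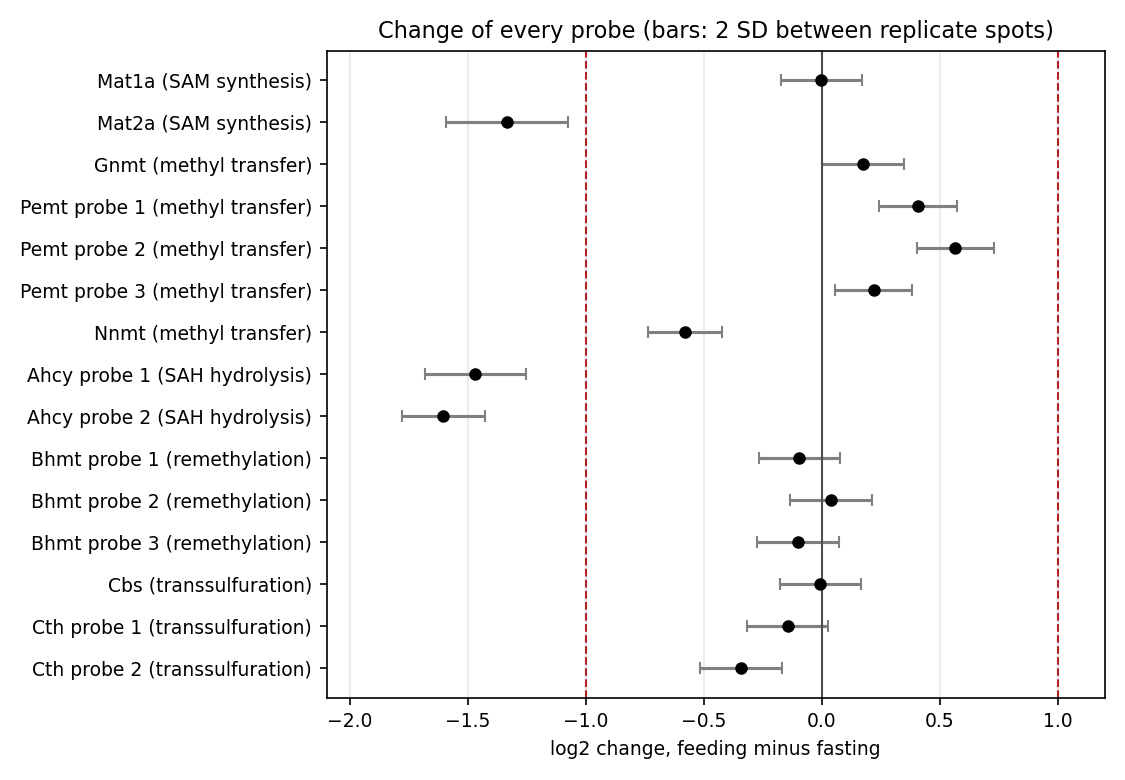
Log2 change, feeding minus fasting (horizontal axis), of each of the 15 probes, with bars of 2 SD of a difference between replicate spots and dashed lines at 2-fold. The bars do not include differences between mice; only the probes of Mat2a and Ahcy lie beyond a dashed line, at -1.33, -1.47 and -1.60.

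Of the genes for the fates of homocysteine, Bhmt and Cbs were within 2 SD of replicate spots by every probe, and Cth by the brighter of its 2 probes. Bhmt encodes betaine-homocysteine methyltransferase, which rebuilds methionine with a methyl group of betaine. Its 3 probes had processed signals of 130576, 105914 and 70334 upon fasting and of 117078, 105241 and 61368 upon feeding. Their changes were -0.10, 0.04 and -0.10, each within 2 SD of replicate spots. Bhmt2, its paralog, had a change of 0.11. Of the folate route to methionine, Mtr, the methionine synthase, had a change of -0.48 by the brighter of its 2 probes and -0.22 by the other. Cbs and Cth encode the successive enzymes of transsulfuration. Cbs had a processed signal of 55765 upon fasting and 52162 upon feeding, a change of -0.0055 (SD of replicate spots 0.09). Cth had 71968 and 61475 by its brighter probe and 61998 and 46656 by the other, with changes of -0.15 and -0.34, the latter 1.27-fold lower and beyond 2 SD of replicate spots. The directions of Mat1a, Bhmt, Cbs and Cth depend on the scaling, since with each array scaled by its median all 4 changes were above 0, from 0.0077 for Cth to 0.15 for Mat1a, where the median of all genes was moved up by 0.12. Relative to the median of all genes under that scaling these 4 genes lay between -0.14 and 0.01. The direction of Cth changed by its brighter probe only. Its other probe was below 0 with quantile normalization (-0.34), 75th percentile scaling (-0.30), median scaling (-0.18) and normexp (-0.36).

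**Figure D3:**
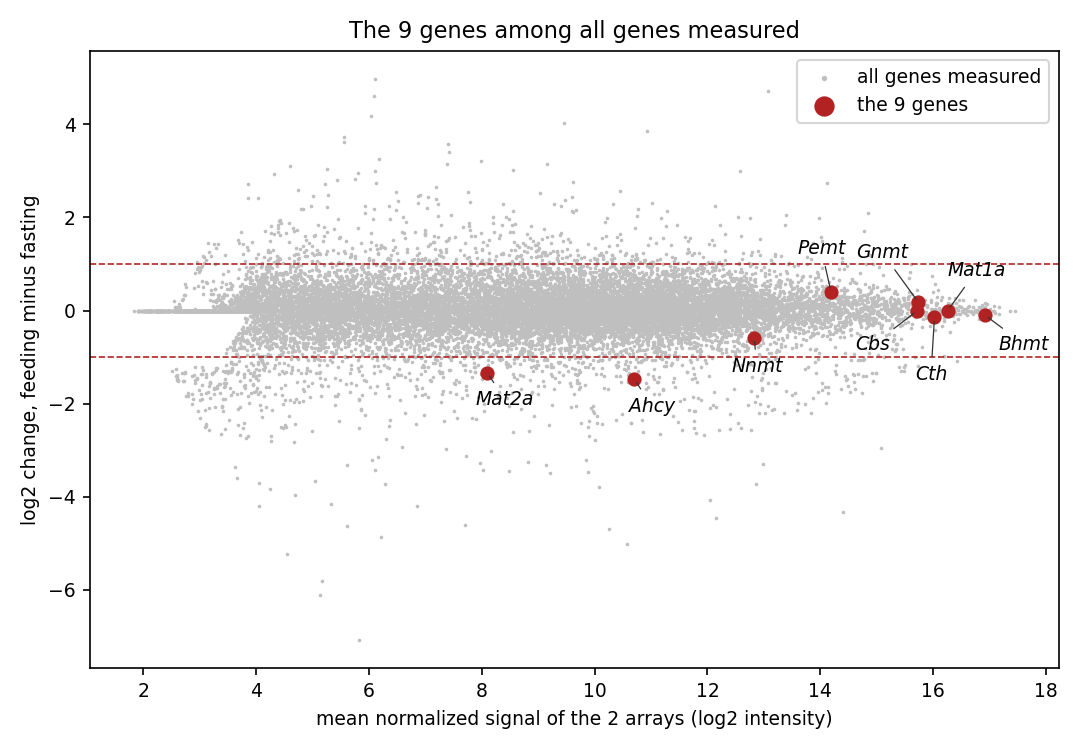
Log2 change, feeding minus fasting (vertical axis), against the mean normalized signal of both arrays (log2 intensity, horizontal axis) for the 16343 genes measured (grey) and the 9 genes (red), with dashed lines at 2-fold. Dim genes whose lower bound gives no fold are drawn at 0; Mat2a and Ahcy lie below the lower dashed line, and Mat1a, Gnmt, Bhmt, Cbs and Cth sit near 0 at the bright end.

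The surrounding pathways were described with 11 lists of genes chosen by function, 126 genes in all beside the 9, of which 121 were measured. Of these, 4 were at least 2-fold higher and 3 at least 2-fold lower upon feeding, 5.79% in either direction, and their median change was -0.0088. With the mean of a gene's probes in place of the brightest, 3 were higher and 5 lower. Of all genes, 7.91% were past 2-fold, and of the bright, middle and dim groups by signal 5.80%, 8.10% and 9.82%. The lists were not matched to other genes by brightness. So the lists as a whole showed no excess of changes, and the genes named next are single values. In the list of polyamine synthesis and methionine salvage, 2 of 14 genes measured were at least 2-fold higher and 0 lower. These were Srm, the spermidine synthase, with processed signals of 1189 upon fasting and 4545 upon feeding (change 1.98, or 3.96-fold), and Odc1, the ornithine decarboxylase that starts the pathway, with 3498 and 7302 (change 1.09). Both probes of Srm (1.89 and 1.98) and all 3 of Odc1 (0.85 to 1.18) were higher. The spermidine synthase takes its aminopropyl group from decarboxylated SAM, which ties this pathway to the SAM pool. In the nicotinamide list, 1 of 11 genes was past 2-fold, Nmrk1, the nicotinamide riboside kinase (552.2 and 1267, change 1.30).

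Among 20 genes of the folate list, 1 was past 2-fold, Slc25a32, the carrier that brings folate into mitochondria, with processed signals of 2551 upon fasting and 924.2 upon feeding (change -1.39, or 2.62-fold lower). Shmt1, the cytosolic serine hydroxymethyltransferase, had a change of 0.77 (1952 and 3232) and was short of 2-fold. In the serine and glycine list 1 of 9 genes passed, Sds, the serine dehydratase that turns serine into pyruvate, with 19515 upon fasting and 5844 upon feeding (change -1.72, or 3.29-fold lower). In the phosphatidylcholine list 1 of 12 genes passed, Etnk1, an ethanolamine kinase (246.7 and 79.3, change -1.43). Its relative Etnk2 had a change of -0.80 by its brighter probe and -1.97 by the other, and by their mean, -1.39, was past 2-fold. Under normexp Etnk1 changed by -0.77 and was no longer past 2-fold. In the list of DNA and RNA methylation 1 of 10 genes passed, Dnmt3b, a de novo DNA methyltransferase (284.9 and 678.8, change 1.40), but its 3 probes ran from -0.28 to 1.40, and by their mean the change was 0.70, short of 2-fold.

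None of the genes in the other 5 lists was past 2-fold. Among the 8 further genes of the methionine cycle, the highest change was that of Mtrr, the methionine synthase reductase, at 0.71 on a dim probe (64.8 and 90.8). Of the 9 other methyltransferases of small molecules, Inmt, which methylates indole amines, was highest (0.74, processed signals 7439 and 12118) and Coq3, of coenzyme Q synthesis, lowest (-0.82). The single probe of Coq3 was dim (processed signals 239.1 and 117.7), and under normexp its change was -0.30. In the choline and betaine list (7 genes) Chdh, the choline dehydrogenase, was lowest at -0.47, though its 3 probes ran from -0.49 to 0.15, and Pipox, which oxidises sarcosine and pipecolate, had a change of -0.32. In the vitamin B12 list (9 genes) the extremes were Abcd4 (-0.90), a lysosomal transporter of the vitamin, and Mmachc (0.57), which processes it. In the list of cysteine use and glutathione synthesis (12 genes) they were Csad (-0.76), of taurine synthesis, and Tst (0.55), a sulfur transferase. In the serine and glycine list Gcsh, a subunit of the glycine cleavage system, had a change of 0.29. Further, Nmnat3, of NAD synthesis, had a change of 0.81 and Mettl16, an RNA methyltransferase, of 0.68.

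**Figure D4:**
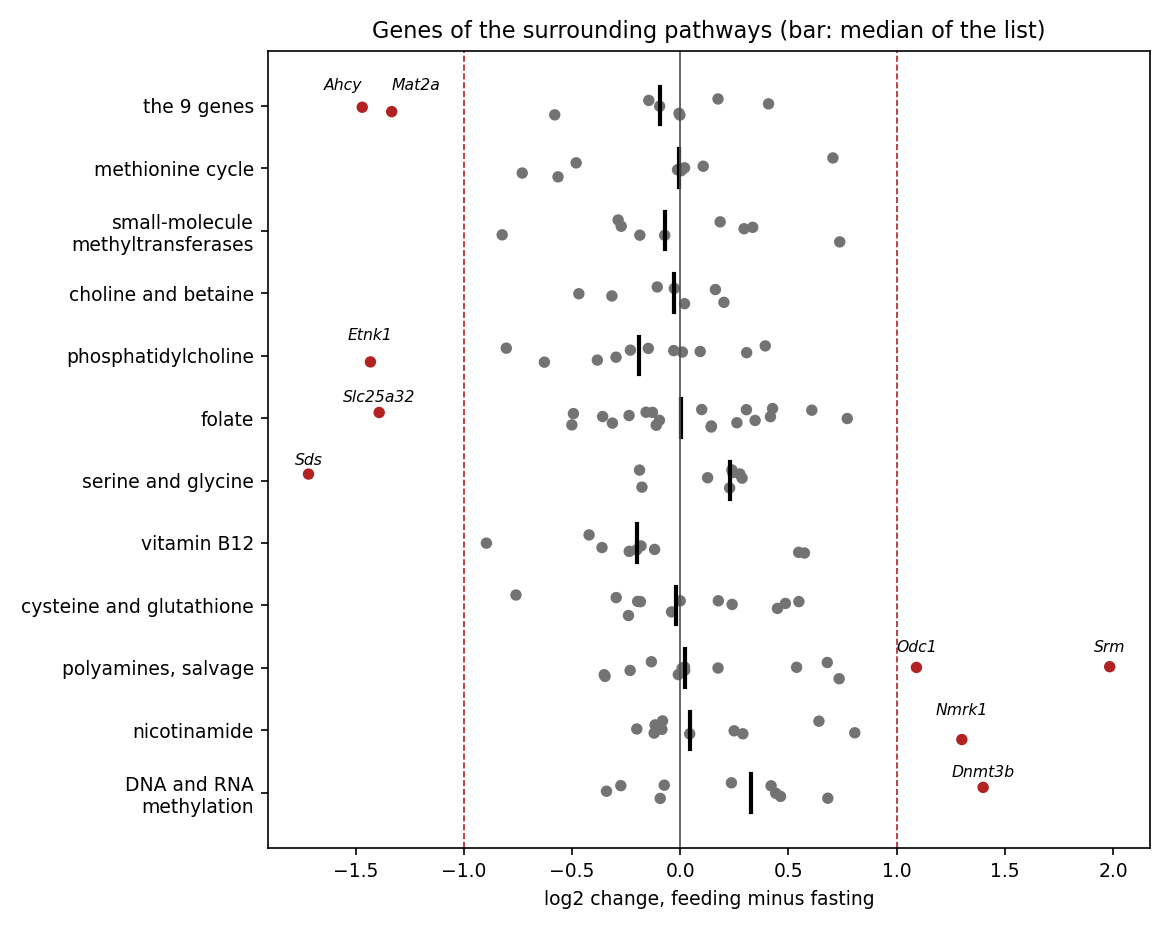
Log2 change, feeding minus fasting (horizontal axis), of each gene measured in the 9 genes and in each of 11 lists of surrounding pathways; red points are past 2-fold (dashed lines), and black bars mark list medians. The list points past 2-fold are Etnk1, Slc25a32 and Sds on the lower side and Odc1, Srm, Nmrk1 and Dnmt3b on the higher side.

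The tissue label was checked with marker genes. All 8 hepatocyte markers were measured, with changes from -0.97 to 0.07 and a summed normalized signal of 700034 upon fasting and 610293 upon feeding. The changes were uneven: the lowest were those of Tat (-0.97, normalized signals 104878 and 53470) and Hnf4a (-0.43). Of 14 markers of nonparenchymal liver cells, all were measured, 9 were below 0 and 1 was past 2-fold, with a median of -0.31 and a summed signal of 55320 upon fasting and 38829 upon feeding. The 8 markers of leukocytes and red blood cells had a median of -0.02 and summed signals of 39425 and 39037. Of the 6 pancreas markers, 5 were measured, 1 was at least 2-fold higher and 1 at least 2-fold lower, 2 were not well above background on 1 of the arrays, and their summed signal was only 457.2 and 365.0. The part of these shifts in the changes of the 9 genes was not tested. In whole liver a smaller share of a cell type, less RNA per cell and a change of single marker genes cannot be told apart by summed signals.

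**Figure D5:**
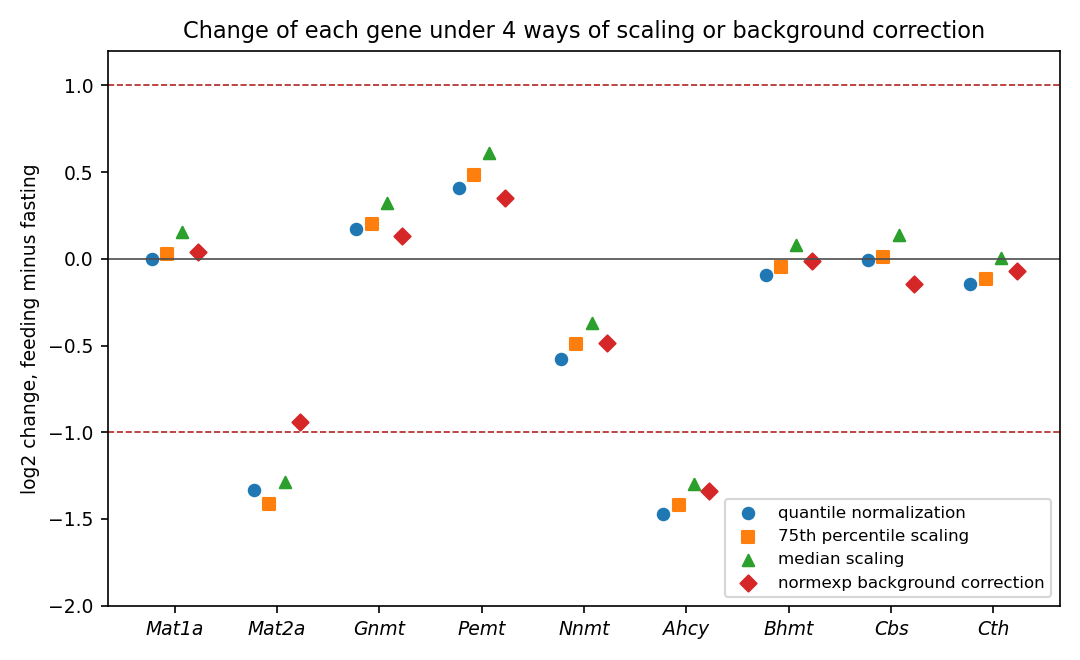
Log2 change, feeding minus fasting (vertical axis), of each of the 9 genes with quantile normalization, 75th percentile scaling, median scaling and the normexp background correction, with dashed lines at 2-fold. Ahcy stays below the lower dashed line in all 4, Mat2a in all but normexp (-0.94), and the signs of Mat1a, Bhmt, Cbs and Cth change between settings.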

How the data were processed

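Per the labels and the file headers, the authors labelled liver RNA with Cy3, hybridised it to a 4x44K Whole Mouse Genome array and extracted spot intensities with Feature Extraction 11.0.1.1; the design names the build mm9. The deposited intensities are not normalized between arrays. The deposited value table of the series equals the mean local background at 44397 of 44397 spots of both arrays (tolerance 1e-06) and was not used as expression.

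Here, control spots (1377 per array) and outlier spots (123 upon fasting, 98 upon feeding) were dropped, log2 processed signals were averaged per probe, and 39402 probes were quantile normalized as in the study's methods. By the deposited flags 63.1% of spots for transcripts upon fasting and 72.3% upon feeding were well above background; the number of arrays limits the precision. RefSeq transcripts of GRCm38.p6 named 27212 probes (69.1%). The threshold was 2-fold, a lower bound being taken where 1 array was not well above background; this applied to none of the 9 genes. The replicate-spot SD came from the 50 probes nearest in signal among 392 spotted up to 10 times. With 1 array per group no test was run.

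The 9 genes and the gene lists were chosen with earlier results of these data known. Genes were named by rule: all 9, every list gene past 2-fold, otherwise up to 2 per list, and the partners Mat2b, Bhmt2, Ahcyl1, Adk and Mtr; another gene under this rule is not reported here. Of the list genes, Tmt1a, Tmt1b, Pcyt1b, Amd1 and Nmnat2 were not measured. The steps were also run on simulated data with known folds. The noise there was set in advance and held no differences between mice. That run therefore checks the computation and not the calls from 1 pool per group. Tools were Python 3.11.15, R 4.3.3 and limma 3.58.1. Alternatives were 75th percentile and median scaling, normexp (offset 50) on the median signal, averaging the probes of a gene, a stricter filter on dim probes or none, leaving out the bound, and thresholds of 1.5-fold and 3-fold.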

Additional observations from a re-analysis of the deposited data

How the results depend on the processing

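Ahcy and Mat2a were past 2-fold under 75th percentile and median scaling. They were also past it with the mean of a gene's probes, with stricter or no filters on dim probes and without the lower bound. The filters and the bound could not change either gene, as their probes were well above background on both arrays. Averaging could not change Mat2a, which has 1 probe. With normexp on the raw signal 1 of the 9 genes, Ahcy, was past 2-fold; at a threshold of 3-fold 0 were, and at 1.5-fold 2. The median change of the 9 genes was 0.078 with median scaling, which moved the median of all genes up by 0.12, and between -0.10 and -0.05 under the other alternatives; relative to all genes it was -0.12, and -0.07, -0.07 and -0.08 with 75th percentile scaling, median scaling and normexp. Over all genes, 527 were past 2-fold under normexp, 2022 without a filter on dim probes, 3450 at 1.5-fold and 469 at 3-fold, in place of 1292. Of the 1292, 537 were higher and 755 lower; with median scaling the numbers were 717 and 648, and without the lower bound 876 and 759. Of the genes of the 11 lists, 22 were past 1.5-fold and 2 past 3-fold, in place of 7 past 2-fold.

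No paired analysis was possible because each group has 1 array. For the same reason no replicate was left out. Among 63 values of the 9 genes under the alternatives, 49 moved by less than the SD of replicate spots and 14 by more. None of the calls reversed in direction, but that of Mat2a was lost under normexp. Many of the 49 could not move at all. The filters on dim probes and the bound left all 9 genes unchanged, as their 15 probes were well above background on both arrays. Averaging likewise left the 5 genes with 1 probe unchanged. Signal over background limits Mat2a most, whose processed signal upon feeding was 159.5; differences between mice cannot be judged from 1 pool per group.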
